A study of Solanum lycopersicum with 9 samples.

Results

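Cupins are proteins built on a small beta-barrel that usually holds a metal ion, and they range from bacterial sugar epimerases such as RmlC, which lends its name to many plant annotations, to the storage globulins of seeds. Germins are plant cupins of the cell wall that were first found in germinating wheat embryos, where germin is a manganese-containing oxalate oxidase that releases hydrogen peroxide. Germin-like proteins share the fold and the secretion signal; most are not known to oxidise oxalate, and some have superoxide dismutase activity. In seeds, both branches meet at germination: storage cupins are the protein reserve that is broken down, and germins are made as the embryo starts to grow.

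The genes described here are those whose description in the deposited table names a cupin or a germin-like protein, other than vicilins, legumins and 11S globulins. The rule found 29 of 40229 rows, 22 of them germin-like proteins and 7 described as cupins. The names come from protein similarity: 15 descriptions were carried over from pepper species (5 each from Capsicum annuum, Capsicum baccatum and Capsicum chinense), 4 from Artemisia annua, 3 from Trifolium pratense, 2 each from potato, Arabidopsis thaliana and Cephalotus follicularis and 1 from a member of the Lamiales. Names such as subfamily 1 member 20 therefore mark likeness to a named protein of another species and not an established tomato gene.

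RNA was taken from tomato (Solanum lycopersicum) seeds that had imbibed, or soaked up water, for 6 h, an early stage of germination. The 9 libraries were 3 each of wild type (WT), an SlLBD40 knockout line and an SlWRKY37 knockout line; LBD40 belongs to the LOB domain family and WRKY37 to the WRKY family of plant transcription factors. Mutant alleles, the number of independent lines, the cultivar and the plants behind each library are not stated in the labels. The p-values therefore rest on a spread between libraries that may be technical. The comparisons ask how each knockout differs from WT seeds, and whether both knockouts differ from each other.

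Values are expression values taken as FPKM, that is, scaled by transcript length and by the fragments of a library. They sum to 856291 to 918103 per library. Read totals are unknown, and no counting interval can be given; low values sat on steps of whole fragments, whose size put the depth of the other libraries between 0.846 times that of WT replicate 1 and the same depth, with WRKY37 knockout replicate 3 the lowest. Seed markers, rows described as oleosin, late embryogenesis abundant protein, dehydrin or storage globulin, held a share of the sum in every library. Of these 132 rows, 105 were above 0 in at least 1 library and 27 were at 0 in all. Of all protein-coding rows, 25.3% were at 0 in all 9 libraries. Together the seed marker rows made up 7.28 to 9.15% of the sum in WT. Their share was 2.46 to 3.06% with LBD40 knocked out and 2.77 to 4.83% with WRKY37 knocked out, where replicate 3 was the highest. Rows of green tissue (chlorophyll a-b binding proteins, photosystems and the small Rubisco subunit) made up 0.0495 to 0.0936% of the sum in WT, 0.0818 to 0.105% in LBD40 and 0.0357 to 0.0529% in WRKY37 knockout libraries. Of 52 tested green rows, 13 rose and 1 fell in the LBD40 knockout, 2 rose and 8 fell in the WRKY37 knockout, and 32 were higher and 3 lower in LBD40 than in WRKY37. The 16 rows of endo-beta-mannanases, which loosen the endosperm wall, summed to 191 to 234 in WT, 246 to 341 with LBD40 knocked out and 292 to 450 with WRKY37 knocked out; of 12 tested, 6 rose and 2 fell in the LBD40 knockout and 4 rose and 0 fell in the WRKY37 knockout. Over all 18346 tested genes, 18% rose and 19.2% fell in the LBD40 knockout, and 4.82% rose and 4.56% fell in the WRKY37 knockout. Between the knockouts, 12.9% were higher and 14.1% lower in LBD40. The part of the seed marker, green and mannanase lists in the results below was not tested. Fewer cells of a type and less RNA per cell cannot be told apart in such bulk samples.

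Most of the family was silent or close to it in these seeds. Of the 29 genes, 10 were listed at 0 in all 9 libraries, 10 were above 0 in some library but had a mean below 1, and 9 had a mean of at least 1 and were tested. As a share, 31.0% of the family reached that mean, against 50.8% of all protein-coding rows, and 34.5% were listed at 0 throughout, against 25.3%. The 9 tested genes were 5 germin-like proteins and 4 cupins, and they were clear of the threshold: the lowest mean among them was 6.06, the highest mean among the others was 0.676, and no tested gene fell below 2.96 in any library.

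Subfamily 1 of the germin-like proteins, the largest subgroup by name with 14 genes, was largely silent. Of these 14, 7 were listed at 0 in every library and 2 were tested. Many of the genes were neighbours: 19 of the 29 genes lay in 6 runs of adjacent rows. Of these runs, 3 were on chromosome 1, 2 on chromosome 9 and 1 on chromosome 10. In the runs, 3 of the 19 genes were tested, against 6 of the 10 genes with no family member in an adjacent row. Those 6 include subfamily 1 member 15 on chromosome 9, which lay near the run of 4 on that chromosome. A run of 5 on chromosome 1 held a single value above 0, which was 1.01 for subfamily 1 member 15 (copy 1) in WT replicate 1. In a run of 4 on chromosome 9 described as subfamily 1 member 20, copies 1 and 2 were listed at 0, copy 3 reached 0.14 in LBD40 knockout replicate 3 alone, and copy 4 had values of 8.71 to 22.6. Neighbouring copies of this kind can share reads, and the sources used here do not say how the authors' counting dealt with that.

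The 10 genes below the threshold gave 42 values above 0, of which 19 lay between 0.14 and 0.17, the lowest values seen among them. The highest was 3.01, for an RmlC-like cupin on chromosome 9 (copy 1) in LBD40 knockout replicate 3; the same gene had 1.74 in WT replicate 2, 0.61 and 0.72 in a library of each knockout, and 0 in the other 5 libraries. Germin-like protein subfamily 3 member 2 on chromosome 11 had 0.14, 0 and 0.29 in WT, 0.87, 0.31 and 0.85 in the LBD40 knockout and 0.43, 0.8 and 0.16 in the WRKY37 knockout. In the fit with no filter on low values, 0 of these 10 genes passed in any comparison by limma. Subfamily 3 member 2 had the only unadjusted p below 0.05, in the LBD40 knockout against WT, where the libraries did not overlap (log2 difference 0.54, SE 0.20, adjusted p = 0.0848). A further 8 rows are described only as germin, which the rule does not find: 5 on chromosome 11 were listed at 0 in all libraries, and none of the other 3 exceeded 0.8.

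**Figure D1:**
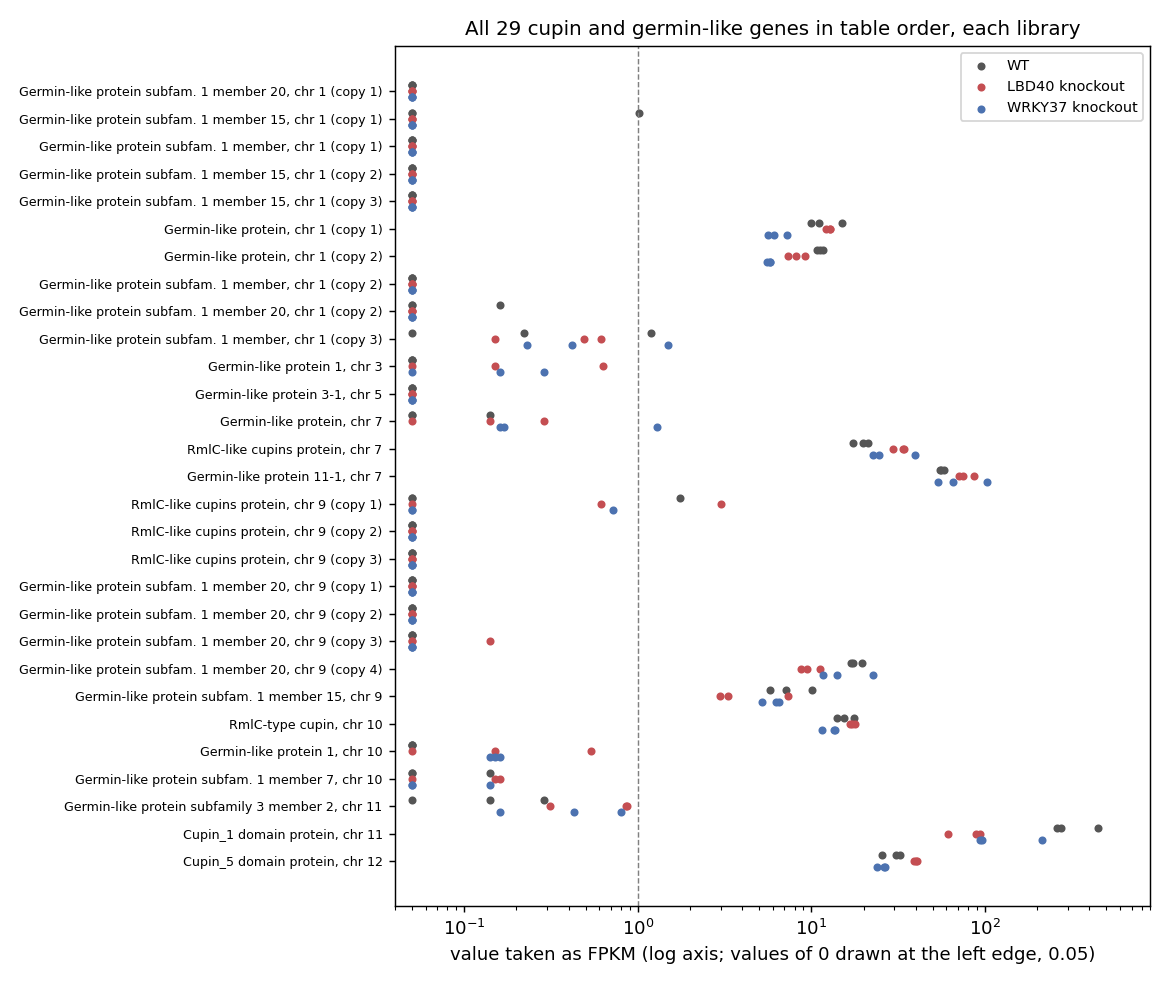
Values of all 29 genes in each library (x axis, value taken as FPKM, log scale; zeros are drawn at 0.05) in the order of the table, with 3 points per genotype and a dashed line at 1. The 9 tested genes lie at 2.96 or above in every library, while the others are listed at 0 or stay at or below 3.01.

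Differences were tested with limma on log2(value + 1), which understates the change of low genes, and are called where the p adjusted over all tested genes is below 0.05. Counted over the 9 tested genes, 2 rose and 3 fell in the LBD40 knockout, where 37.2% of all 18346 tested genes were called, 18% as higher and 19.2% as lower. In the WRKY37 knockout 3 fell and 0 rose by limma, where 9.38% of all genes were called, 4.82% as higher and 4.56% as lower. Between the knockouts 4 were higher in LBD40 and 0 lower, where 27% were called, 12.9% as higher and 14.1% as lower. Over all tested genes, the libraries of the groups did not overlap for 56.8%, 27.3% and 42.3% in these comparisons, and 46.1% were called in at least 1 of them. The median log2 differences of the 9 genes were 0.08, -0.26 and 0.20, against -0.02, 0.02 and -0.08 over all tested genes. Cupin_1 and germin-like protein copy 2 on chromosome 1 were called lower in both knockouts. These comparisons share the WT libraries, and the share of all genes called lower in both was not counted. The Cupin_1 call in the WRKY37 knockout was lost in 4 of 9 fits with a library left out. That of copy 2 in the LBD40 knockout was lost in 5.

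Among the cupins, the Cupin_1 domain-containing protein on chromosome 11 had the highest mean of all 29 genes and the largest log2 difference of each knockout from WT. In 2 libraries, LBD40 knockout replicate 3 and WRKY37 knockout replicate 1, germin-like protein 11-1 was higher. Cupin_1 is the domain that storage globulins and germins share, so the name does not say which kind of cupin this gene makes. Its values were 446, 261 and 276 in WT, 93.7, 88.7 and 61 in the LBD40 knockout, and 94.1, 96.4 and 212 in the WRKY37 knockout. Every knockout library lay below every WT library, and WRKY37 knockout replicate 3 stood far above the other libraries of its group. The level fell 4.04-fold from WT to the LBD40 knockout, from 328 ± 103 to 81.1 ± 17.6 (SD, n = 3; log2 difference -1.98, SE 0.32, limma adjusted p = 0.00167). In the WRKY37 knockout it fell 2.44-fold, to 134 ± 67.6 (log2 difference -1.35, SE 0.32, limma adjusted p = 0.028). The knockouts did not differ from each other by the test (log2 difference -0.64, 95% interval -1.35 to 0.08, adjusted p = 0.163). Their libraries did not overlap, though narrowly, with 93.7 the highest in LBD40 and 94.1 the lowest in WRKY37.

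The fall of Cupin_1 in the LBD40 knockout passed under every alternative, with limma adjusted p from 0.00052 to 0.00824. That in the WRKY37 knockout did not pass without WT replicate 1 (adjusted p = 0.109), WT replicate 3 (0.0614), WRKY37 knockout replicate 1 (0.0972) or WRKY37 knockout replicate 2 (0.0907). With every library kept, it also did not pass with no filter on low values (0.0694) or with only WT and WRKY37 libraries in the fit (0.081). Nor did it pass with the replicate number added to the model (0.0566). The range over all alternatives was 0.00349 to 0.109. Without WRKY37 knockout replicate 3 the log2 difference was -1.73 and the adjusted p 0.00349.

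Storage globulins, the reserve proteins that carry a pair of cupin domains each, fell in the LBD40 knockout as Cupin_1 did, and in some of them WRKY37 knockout replicate 3 again stood apart from its group. Of 14 rows described as vicilin, legumin or 11S globulin, 3 were listed at 0 and 6 were tested; 5 of the 6 fell in the LBD40 knockout and 2 in the WRKY37 knockout, with median log2 differences of -3.33 and -1.13 against -0.02 and 0.02 over all tested genes. Their sum was 6257 to 8203 in WT and 548 to 764 in the LBD40 knockout. In the WRKY37 knockout it was 1346, 1960 and, in replicate 3, 7126, inside the WT range; vicilin on chromosome 9 alone gave 5856 of the last value. Replicate 3 did not stand apart for a storage globulin on chromosome 2 (described as vicilin-like, after At2g18540), which had 79, 92 and 93.2 in the WRKY37 knockout and fell in both knockouts (limma adjusted p = 4.23e-05 in LBD40 and 7.35e-05 in WRKY37). The 11S globulin seed storage protein 2 on chromosome 9 (copy 2), which did not pass in either knockout, had 42.8, 55.5 and 427 in the WRKY37 knockout against 140 to 229 in WT. Of the 77 tested rows of the whole seed marker list, which holds the storage globulins too, 34 fell and 14 rose in the LBD40 knockout and 32 fell and 4 rose in the WRKY37 knockout. Over all tested genes 19.2% fell and 18% rose in the former and 4.56% fell and 4.82% rose in the latter. Their part in the Cupin_1 values was not tested.

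The other tested cupins were expressed at moderate levels. The RmlC-like cupins superfamily protein on chromosome 7, whose role is not known from its name, had 19.7, 21.1 and 17.4 in WT, 33.9, 29.5 and 34.2 in the LBD40 knockout, and 24.7, 39.7 and 22.7 in the WRKY37 knockout. All 6 knockout libraries were above all 3 of WT. It rose 1.67-fold in the LBD40 knockout (log2 difference 0.72, SE 0.19, limma adjusted p = 0.0154). In the WRKY37 knockout the ratio was 1.49 and did not pass (log2 difference 0.52, 95% interval 0.09 to 0.94, adjusted p = 0.12).

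The Cupin_5 domain-containing protein on chromosome 12 separated the knockouts. Its values were 30.9, 32.4 and 25.6 in WT, 39.1, 40.5 and 40.2 in the LBD40 knockout, and 26.6, 26.2 and 23.9 in the WRKY37 knockout. The LBD40 libraries were the highest 3 of the 9, and the other groups overlapped. It rose 1.35-fold from WT to the LBD40 knockout (log2 difference 0.43, SE 0.11, limma adjusted p = 0.0162) and was 1.56-fold higher there than in the WRKY37 knockout (log2 difference 0.62, SE 0.11, adjusted p = 0.00465). The difference between WRKY37 knockout and WT did not pass (-0.20, 95% interval -0.45 to 0.05, adjusted p = 0.314).

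The RmlC-type cupin on chromosome 10 was the steadiest of the 4, at 14.1, 15.4 and 17.6 in WT, 16.7, 17.8 and 17.2 in the LBD40 knockout and 13.7, 13.6 and 11.6 in the WRKY37 knockout. Neither knockout differed from WT by the test (log2 differences 0.13 and -0.26, limma adjusted p = 0.424 and 0.232), although every WRKY37 library lay below every WT library. The LBD40 knockout was 1.33-fold above the WRKY37 knockout (log2 difference 0.39, SE 0.12, adjusted p = 0.0422), a call that was lost in 8 of the 9 fits that leave out a library, with adjusted p from 0.0509 to 0.13, and kept among these only without WRKY37 knockout replicate 1 (0.0487). It was also lost with only the knockout libraries in the fit (0.0783) and with the replicate number added to the model (0.0781). Over all alternatives the adjusted p was 0.0133 to 0.13.

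The rises of the other cupins in the LBD40 knockout did not pass in some of the fits with a library left out. The rise of the RmlC-like cupin on chromosome 7 did not pass without WT replicate 3 (limma adjusted p = 0.0555 at a log2 difference of 0.64) or LBD40 knockout replicate 1 (0.0548 at 0.69; 0.00193 to 0.0555 over all alternatives). That of Cupin_5 did not pass without WT replicate 3 (0.0622 at 0.33) or LBD40 knockout replicate 2 (0.0556 at 0.41; 0.00689 to 0.0622 over all alternatives). With a WT or LBD40 library left out, the share of all tested genes called in this comparison was 24.7 to 31.3%. The higher level of Cupin_5 in the LBD40 than in the WRKY37 knockout passed throughout, with adjusted p from 0.0022 to 0.0246. Without WRKY37 knockout replicate 2 the RmlC-like cupin on chromosome 7 also passed as higher in the LBD40 than in the WRKY37 knockout (log2 difference 0.44, adjusted p = 0.0406; 0.0406 to 0.861 over all alternatives).

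**Figure D2:**
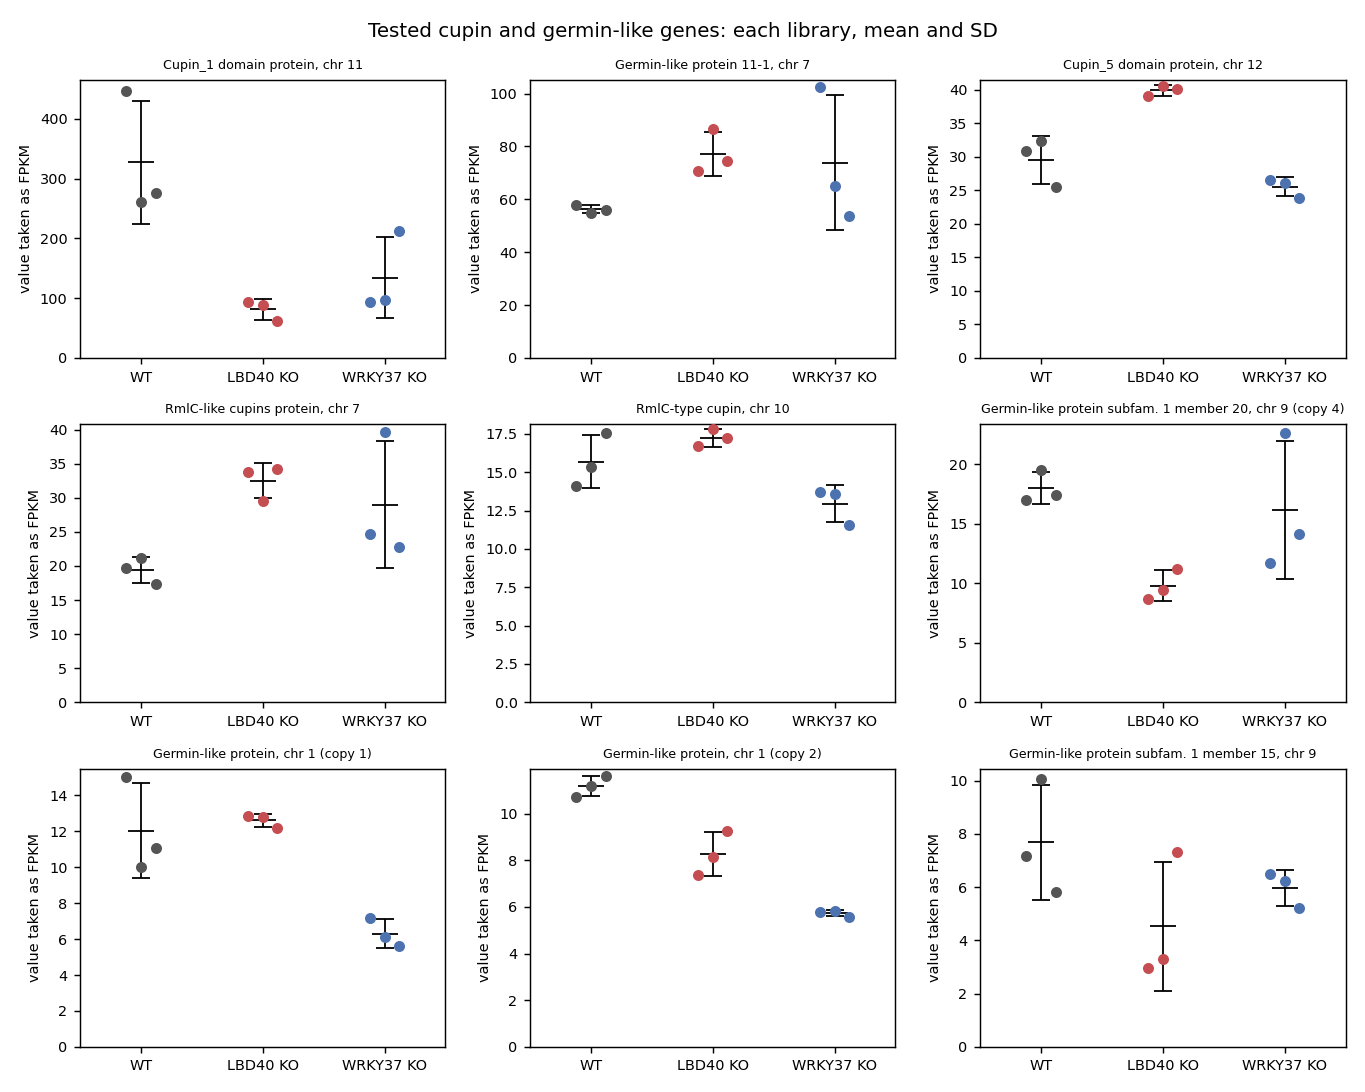
Values (y axis, value taken as FPKM, from 0) of the 9 tested genes in each library, as points by genotype in the order of replicates 1 to 3, with the mean and SD of 3 libraries as bars. Cupin_1 lies between 261 and 446 in WT and between 61 and 212 in the knockouts, and WRKY37 knockout replicate 3 is the highest knockout library for this gene.

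Among the germin-like proteins, the most abundant was germin-like protein 11-1 on chromosome 7. It had 57.9, 55 and 55.9 in WT, 70.6, 86.4 and 74.5 in the LBD40 knockout, and 103, 65.2 and 53.6 in the WRKY37 knockout. The LBD40 libraries were all above WT, while the WRKY37 libraries spread from below to above it. Neither difference passed: the log2 difference was 0.44 in the LBD40 knockout (95% interval 0.0013 to 0.89, limma adjusted p = 0.104) and 0.33 in the WRKY37 knockout (-0.11 to 0.77, adjusted p = 0.336). The LBD40 difference passed without WRKY37 knockout replicate 1 (adjusted p = 0.0152) and with only LBD40 and WT libraries in the fit (0.00833; 0.00833 to 0.269 over all alternatives).

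A pair of adjacent rows on chromosome 1, both described as germin-like protein after a potato protein, were lower in the WRKY37 knockout. Copy 1 had 15, 9.99 and 11.1 in WT and 7.2, 6.1 and 5.6 in the WRKY37 knockout, without overlap. It fell 1.91-fold (log2 difference -0.82, SE 0.16, limma adjusted p = 0.0123). Copy 2 had 10.7, 11.2 and 11.6 in WT and 5.8, 5.81 and 5.58 in the WRKY37 knockout, again without overlap, and it fell 1.95-fold (log2 difference -0.86, SE 0.13, adjusted p = 0.00353).

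In the LBD40 knockout copy 2 alone passed the test. Copy 1 had 12.8, 12.8 and 12.2, inside the WT range (log2 difference 0.08, 95% interval -0.28 to 0.44, limma adjusted p = 0.716). Copy 2 had 7.37, 8.15 and 9.25, between WT and the WRKY37 knockout, and fell 1.35-fold from WT (log2 difference -0.40, SE 0.13, adjusted p = 0.034). Both were higher in the LBD40 than in the WRKY37 knockout, copy 1 the more so (12.6 ± 0.37 against 6.3 ± 0.819, log2 difference 0.91, SE 0.16, adjusted p = 0.00437) and copy 2 by 1.44-fold (0.46, SE 0.13, adjusted p = 0.0273). Whether the copies differ from each other in their response was not tested, and similar copies can exchange reads.

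Of these calls, the fall of copy 2 in the WRKY37 knockout (limma adjusted p from 0.00168 to 0.0225) and the difference of copy 1 between the knockouts (0.00361 to 0.0236) passed under every alternative. The fall of copy 1 in the WRKY37 knockout did not pass without WT replicate 1 (0.0511), nor with only WT and WRKY37 libraries in the fit (0.0614; 0.00991 to 0.0614 over all alternatives). The smaller fall of copy 2 in the LBD40 knockout did not pass without WT replicate 1 (0.0734), 2 (0.0846) or 3 (0.103). Nor did it pass without LBD40 knockout replicate 1 (0.122) or 2 (0.0968), or with the replicate number added to the model (0.0605). The difference of copy 2 between the knockouts did not pass without LBD40 knockout replicate 2 or 3 (0.0822 in both). Nor did it pass with only the knockout libraries in the fit (0.0795) or with the replicate number added to the model (0.0521). Over all alternatives the adjusted p was 0.00702 to 0.0822.

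On chromosome 9, the subfamily 1 member 20 gene (copy 4) was lower in the LBD40 knockout. Its values were 17, 19.5 and 17.4 in WT, 8.71, 9.46 and 11.2 in the LBD40 knockout, and 11.7, 22.6 and 14.1 in the WRKY37 knockout. The LBD40 libraries were the lowest 3 of the 9, and the WRKY37 libraries overlapped WT. It fell 1.84-fold in the LBD40 knockout (log2 difference -0.82, SE 0.21, limma adjusted p = 0.0134), and did not pass without LBD40 knockout replicate 1 (0.0543; 0.00233 to 0.0543 over all alternatives). The WRKY37 difference from WT was -0.20 (95% interval -0.66 to 0.27, adjusted p = 0.609). Between the knockouts the test was just missed (log2 difference -0.62, adjusted p = 0.0513), and the libraries did not overlap. This difference passed without WRKY37 knockout replicate 1 (0.0176). With every library kept, it passed with a pseudocount of 0.1 (0.0497), a minimum mean of 5 (0.042) and quantile normalization (0.0325). Scaling to the same total (0.0387), median-ratio scaling (0.0334) and the replicate number added to the model (0.0489) also gave a call. Over all alternatives the adjusted p was 0.0176 to 0.163.

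Subfamily 1 member 15, 2 rows further on the same chromosome, had 7.18, 10.1 and 5.8 in WT, 2.96, 3.31 and 7.33 in the LBD40 knockout, and 6.5, 6.22 and 5.22 in the WRKY37 knockout. All groups overlapped WT, and the spread of the LBD40 libraries came from replicate 3. No comparison passed (log2 difference -0.70 in the LBD40 knockout, limma adjusted p = 0.0754, and -0.29 in the WRKY37 knockout, adjusted p = 0.574). Against WT the LBD40 difference passed with quantile normalization (adjusted p = 0.0362). Without LBD40 knockout replicate 3 the gene was lower than WT (log2 difference -1.04, adjusted p = 0.0102; 0.0102 to 0.245 over all alternatives) and lower than in the WRKY37 knockout (-0.75, adjusted p = 0.0411; 0.0411 to 0.662).

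**Figure D3:**
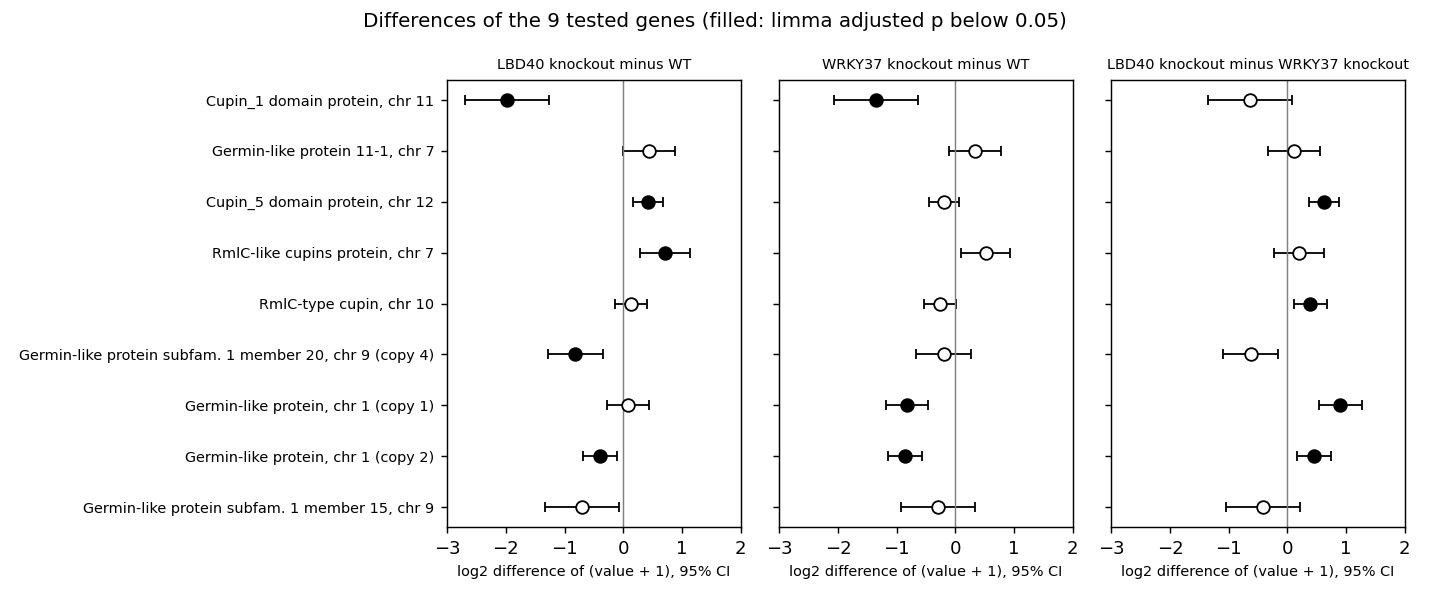
Log2 differences of value + 1 (x axis) for the 9 tested genes in the 3 contrasts, with unadjusted 95% intervals; filled points have a limma adjusted p below 0.05. Cupin_1 and germin-like protein copy 2 on chromosome 1 are filled on the lower side in both knockouts, and the 4 filled points between the knockouts are on the higher side for LBD40.

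The fall in the summed level came with Cupin_1 and not with the cupin branch as a whole. All 29 genes together summed to 621, 438 and 438 in WT, 288, 298 and 272 in the LBD40 knockout and 295, 283 and 357 in the WRKY37 knockout. Both knockouts lay below WT without overlap (499 ± 106 in WT, 286 ± 13 and 312 ± 39.7 in the knockouts, SD, n = 3; exact two-sided permutation p = 0.1 for each, the smallest that 3 libraries against 3 can give). Cupin_1 made up 59.6 to 71.8% of the sum in WT and 22.4 to 34% in all knockout libraries other than WRKY37 knockout replicate 3, where it made up 59.4%. Without Cupin_1 the other 28 genes summed to 163 to 177 in WT. In the knockouts this sum was 194 to 211 (LBD40) and 145 to 201 (WRKY37). The cupins other than Cupin_1 summed to 60.5 to 70.6 in WT and to 87.9 to 94.6 in the LBD40 knockout, higher without overlap. In the WRKY37 knockout they summed to 58.9 to 79.4, overlapping WT. The 22 germin-like proteins alone summed to 106 ± 4.08, 114 ± 9.29 and 110 ± 25.1 in the 3 groups, which overlapped (exact permutation p = 0.3 and 0.8 against WT).

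**Figure D4:**
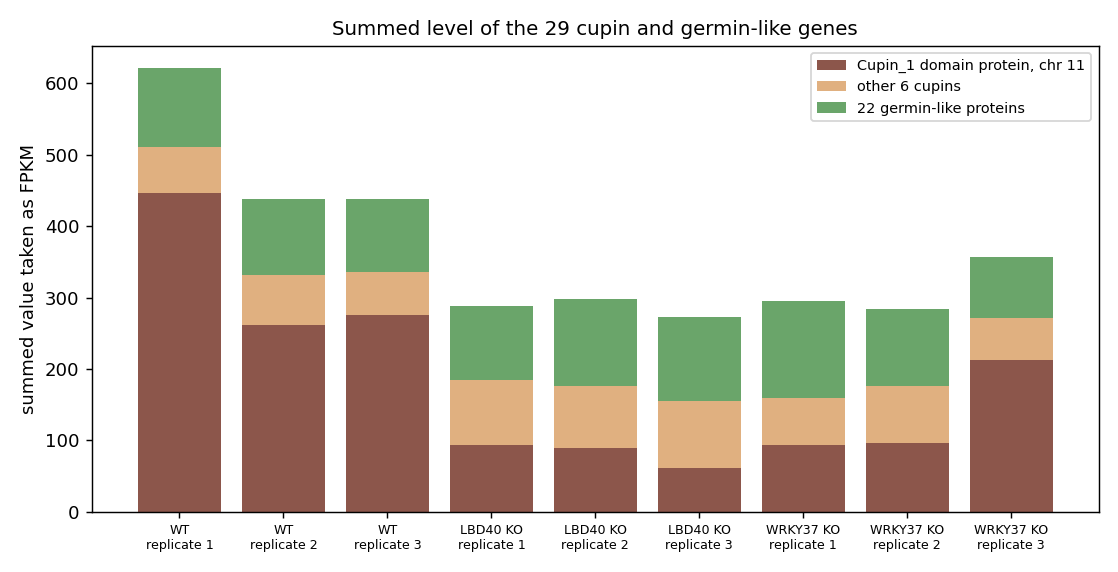
Summed value (y axis, value taken as FPKM, from 0) of the 29 genes in each library, stacked as Cupin_1 on chromosome 11, the other 6 cupins and the 22 germin-like proteins. The sum is 438 to 621 in WT and 272 to 357 in the knockouts, and the Cupin_1 block is smaller in every knockout library than in every WT library. The germin-like block lies between 86.1 and 136; in WRKY37 knockout replicate 3 it and the other cupins (58.9) are also below every WT library.

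Other proteins of the cupin fold, were found by name and are not counted above. Of 19 rows of pirins, plant cysteine oxidases, mannose-6-phosphate isomerases, methionine-salvage dioxygenases and related enzymes, 14 were tested. In the LBD40 knockout 2 rose and 0 fell, in the WRKY37 knockout 3 fell and 0 rose, and 2 were higher and 0 lower in LBD40 than in WRKY37, with median log2 differences of -0.04, -0.12 and 0.18 against -0.02, 0.02 and -0.08 over all tested genes. The share of all tested genes called in these comparisons, in either direction, was 37.2%, 9.38% and 27%. Among the 3 that fell in the WRKY37 knockout, the largest difference was that of homogentisate 1,2-dioxygenase on chromosome 12, an enzyme of tyrosine breakdown, from 51.3 ± 4 to 28 ± 7.15 (limma adjusted p = 0.0135). The dihydroxy-keto-methylthiopentene dioxygenase on chromosome 9 (copy 3), which acts in methionine salvage, was at 129 ± 9.61 in WT. It was at 167 ± 24.6 in the LBD40 knockout (limma adjusted p = 0.0445 against WT). In the WRKY37 knockout it was at 103 ± 7.4 (adjusted p = 0.00487 against LBD40 and 0.145 against WT). Copy 1 of this enzyme did not rise in the LBD40 knockout (20.7 ± 2.81 in WT, 21.9 ± 3.34 in LBD40, adjusted p = 0.738). It fell in the WRKY37 knockout, to 13.6 ± 1.7 (adjusted p = 0.0452). The pattern also took in an allantoate deiminase, which is not known as a cupin and is among the 3 that fell.

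The list of genes of the chemistry tied to germins held 23 rows of superoxide dismutases, catalases, respiratory burst oxidases and oxalate enzymes, of which 17 were tested; 8 rose and 1 fell in the LBD40 knockout, 2 rose and 2 fell in the WRKY37 knockout, and 8 were higher and 0 lower in LBD40 than in WRKY37. Over all tested genes 18% rose and 19.2% fell in the LBD40 knockout, 4.82% and 4.56% in the WRKY37 knockout, and 12.9% were higher and 14.1% lower between them. The median log2 differences of the list were 0.32, -0.02 and 0.10, against -0.02, 0.02 and -0.08 over all tested genes. Oxalate--CoA ligase on chromosome 3, of an enzyme family that starts the breakdown of oxalate, had 62.5, 43 and 52.5 in WT, 136, 152 and 71.7 in the LBD40 knockout and 26.9, 19.6 and 24.7 in the WRKY37 knockout. The LBD40 libraries lay above and the WRKY37 libraries below all of WT. The knockouts differed by 2.23 on the log2 scale (SE 0.26, limma adjusted p = 0.000528). Another oxalate--CoA ligase, on chromosome 6, was low and did not rise in the LBD40 knockout. It had 1.97 ± 0.227 in WT, 1.1 ± 0.0666 in LBD40 and 0.24 ± 0.156 in WRKY37 libraries. Its log2 difference from WT was -0.50 in LBD40 (limma adjusted p = 0.0912) and -1.27 in WRKY37 (0.006). Iron superoxide dismutase on chromosome 6 rose from 17.6 ± 1.22 in WT to 39.1 ± 5.88 in the LBD40 knockout (adjusted p = 0.000589) and was 18.6 ± 1.98 in the WRKY37 knockout. Superoxide dismutase 3 on chromosome 11 rose from 31.7 ± 3.4 in WT to 83.5 ± 7.8 in the LBD40 knockout (limma adjusted p = 0.000109). It also rose, by less, in the WRKY37 knockout, to 43.3 ± 2.16 (log2 difference 0.44, limma adjusted p = 0.039). Respiratory burst oxidases went both ways in that knockout. The gene on chromosome 1 rose from 5.94 ± 3.3 to 44.4 ± 12.4 (adjusted p = 0.000367). That on chromosome 5 fell from 6.31 ± 0.824 to 2.12 ± 0.744 (0.00438). The row sum of the whole list was 1626 to 1836 in WT, against 2101 to 2264 (LBD40) and 1620 to 2061 (WRKY37) in the knockouts.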

How the data were processed

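RNA was measured in 9 libraries of tomato seeds. TopHat2, HISAT2, StringTie and Cufflinks are named in the submitters' processing notes, with no versions or roles; for build and annotation the entry is: not given in the sources used here. Per the labels, libraries were made with a SMARTER mRNA-Seq kit. The authors deposited 1 table of values, read here as FPKM although no header names the unit: values have 2 decimals and library sums differ. TPM over a larger gene set remains possible. The column of WT replicate 1 touches the next column and was read by character position. Gene IDs are shortened to 8 characters, so genes are named by description, chromosome and copy number in table order, and none could be matched to a RefSeq entry or a sequence.

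Members were found by searching the descriptions for cupin and germin-like; no vicilin, legumin or 11S globulin row had to be dropped. The members, lists and tests were chosen with earlier results of these data known. The 18346 genes averaging 1 or more across libraries were fitted as log2(value + 1) with limma 3.58.1 (limma-trend) in R 4.3.3 in a joint fit of every library, with genotype alone in the model. Benjamini-Hochberg adjustment ran over the whole tested set, and an adjusted p below 0.05 was called. The 95% intervals of log2 differences are not adjusted. For summed levels the test was an exact permutation test, two-sided. The fit was checked on simulated data. Members described library by library are the called members, up to 8 a direction in a contrast by smallest adjusted p. The 8 with the highest mean are described too, and the ninth tested member was added after its values were seen. Of a context list, up to 3 called genes a contrast are named. The respiratory burst oxidase on chromosome 5 was added for its opposite direction. Alternatives were a pseudocount of 0.1, a filter at a mean of 5 or none, quantile normalization, 2 scalings, a fit of the compared groups only, a replicate block and leaving out each library. Plots were drawn with matplotlib 3.10.9.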

Additional observations from a re-analysis of the deposited data

How the results depend on the processing

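Over the 27 combinations of a tested gene and a comparison, no difference that was called reversed under any alternative, and 4 of the 12 calls held under all 17 alternatives: Cupin_1 in the LBD40 knockout, germin-like protein copy 2 on chromosome 1 in the WRKY37 knockout, and Cupin_5 and copy 1 between the knockouts. Of 216 values under settings that keep every library, 199 stayed on their side of the threshold, 8 gained and 9 lost a call. The count of genes lower in the LBD40 than in the WRKY37 knockout was 1 in place of 0 with a pseudocount of 0.1, a minimum mean of 5, quantile normalization, scaling to the same total and median-ratio scaling. Fitting only the groups compared gave 1 lower gene in the WRKY37 knockout against WT and 2 genes higher in LBD40 than in WRKY37; over all genes it called 802 in the WRKY37 knockout in place of 1721. Replicate numbers did not pair the libraries: 0 of 9 same-numbered pairs correlated above 0.1 (-0.10 to 0.06), and a library correlated best with its own number in 3 of 18 combinations. The replicate block gave 2 genes higher and 1 lower between the knockouts. Under the block, limma adjusted p was 0.0566 for Cupin_1 in the WRKY37 knockout, 0.0605 for germin-like protein copy 2 on chromosome 1 in the LBD40 knockout, and, between the knockouts, 0.0521 for copy 2, 0.0781 for the RmlC-type cupin and 0.0489 for subfamily 1 member 20 on chromosome 9 (copy 4).

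Leaving out 1 library at a time gave 0 to 3 higher and 1 to 4 lower genes in the LBD40 knockout, 0 higher and 1 to 3 lower in the WRKY37 knockout, and 2 to 4 higher and 0 to 1 lower between them. The count of higher genes in the LBD40 knockout was 0 without WT replicate 3 and 1 without LBD40 knockout replicate 1 or 2, and that of lower genes was 1 without LBD40 knockout replicate 1. In the WRKY37 knockout 1 gene fell without WT replicate 1. Over all tested genes, WRKY37 knockout replicates 1, 2 and 3 had mean correlations of 0.939, 0.942 and 0.951 with WT libraries. With LBD40 knockout libraries these were 0.942, 0.916 and 0.921, and within their own group 0.963, 0.963 and 0.960. The WRKY37 knockout had 1721 genes called against WT with every library kept. Without its replicate 1, 2 or 3 this was 1134, 1347 or 2629. With 3 libraries a group, exact tests of summed levels cannot go below 0.1. The cause of these changes was not tested.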

Other observations

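The adjacent germin-like proteins on chromosome 1 were set against each other after their values were seen, with no test. The value of copy 1 divided by that of copy 2 was 1.40, 0.892 and 0.956 in WT, 1.74, 1.57 and 1.32 in the LBD40 knockout, and 1.24, 1.05 and 1.004 in the WRKY37 knockout. The LBD40 and WT ranges overlapped through WT replicate 1.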
